A study of Oryza sativa with 12 samples.

Results

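The response of wild-type (WT) rice roots to phosphate starvation was examined by comparing WT low-Pi with WT +Pi. The genes described were those with at least 10 counts in each of the 6 WT root libraries. A total of 15374 genes met this minimum, of 30742 genes found in both tables of counts and 41620 genes in the deposited FPKM table (counts corrected for the length of the gene and the size of the library). Both groups were roots of 3-wk-old seedlings of cultivar Nipponbare, grown for 2 wk in hydroponic culture with 0.004 mM phosphate (WT low-Pi) or 0.4 mM phosphate (WT +Pi), with 3 libraries each. For a comparison in other plants, the same contrast was fitted in Os1400 low-Pi and Os1400 +Pi, 3 libraries each, from a single CRISPR/Cas9 line (12SIII) in which the strigolactone gene OsMAX1-1400 is disrupted. That gene, Os01g0701400, has no row in either count table, so its transcript could not be used to check the genotype labels. The labels number the libraries 1 to 3 but do not say that they came from separate plants or cultures, so that p-values measure the spread between these libraries, which may be technical.

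Plants short of phosphate raise its uptake, set it free from organic compounds, and use less of it. In rice, the MYB transcription factor PHR2 switches on most of the genes that respond. SPX proteins hold PHR2 back while phosphate is plentiful, and PHO2, a ubiquitin-conjugating enzyme, removes phosphate transporters from the membrane. Acid phosphatases, ribonucleases and phospholipid-degrading enzymes release phosphate, galactolipids and sulfolipids replace phospholipids in membranes, and roots make more strigolactones (SLs), hormones that are also exuded to attract mycorrhizal fungi.

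The WT low-Pi libraries stood apart from the others of the series. Total counts ranged from 28271749 to 32613875 in WT low-Pi and from 34537076 to 41078078 in WT +Pi, but between 17711 and 22077 genes had a count in WT low-Pi, against between 27191 and 30375 genes in the other 9 libraries. Genes with 1 to 9 counts numbered between 217 and 238 in WT low-Pi and between 595 and 3413 in the other 9 libraries. Of 24350 genes with at least 10 counts in all WT +Pi libraries, 8825 were at 0 or without a row in 1 or more WT low-Pi libraries, and 230 of these had at least 1000 counts in every WT +Pi library. For Os1400 the same applied to 1028 of 25257 genes. The minimum of 10 counts removed such genes, so a gene that WT roots at low-Pi lacked altogether is not among the 15374. In contrast, 172 genes with at least 10 counts in all WT low-Pi libraries missed the minimum at +Pi. Genes shorter than 1000 bases took between 29.4 and 31.8% of the counts in WT low-Pi and between 22.3 and 24.4% in the other 9 libraries. The part of these features of the libraries in the results below was not tested.

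Root identity was checked with marker genes. The root-specific gene RCc3 (Os02g0662000) had 32270, 31076, and 51263 counts in WT low-Pi and 47533, 58695, and 45092 counts in WT +Pi, and the silicon influx channel Lsi1 (Os02g0745100), which marks the exodermis and endodermis, had at least 19328 counts in every WT library. Neither was called, but Lsi1 (Os02g0745100) was called lower without WT low-Pi replicate 3 (log2 fold change -1.25, edgeR adjusted p = 0.00262). Of 26 chlorophyll-binding and Rubisco small subunit genes, which mark shoot tissue, 2 passed the minimum, and the other 20 with a row were at 0 or without a row in at least 1 WT low-Pi library. Of the 20, 6 had at least 10 counts in every WT +Pi library. Os04g0690800 (102, 72, and 95 counts in WT +Pi) and Os03g0592500 (28, 114, and 23) had 0 counts in each WT low-Pi library. With edgeR's own filter, which lets in more genes, they were called lower at low-Pi (edgeR adjusted p = 0.0151 and 0.0196). Both genes that passed the minimum rose. Os01g0720500 had 731, 674, and 1081 counts in WT low-Pi and 390, 374, and 415 counts in WT +Pi (log2 fold change 1.67), and the light-harvesting gene Os11g0242800 had 1043, 1225, and 942 counts in WT low-Pi and 747, 865, and 790 counts in WT +Pi (log2 fold change 0.98). Their calls held in 14 of 16 and 12 of 16 alternative fits, and the part of shoot-type transcripts in the results was not tested. The transporter of mycorrhizal roots, PT11 (Os01g0657100), had 0 counts in each WT +Pi library and no row in the low-Pi table. In RNA from whole roots, fewer cells of a type and less RNA per cell cannot be told apart.

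Of the 15374 genes tested, 2765 (18.0%) were up-regulated and 2215 (14.4%) were down-regulated in WT low-Pi compared with WT +Pi (edgeR's quasi-likelihood test, Benjamini-Hochberg adjusted p of 0.05 or less). The median log2 fold change of all tested genes was 0.04. Among the calls, 283 up-regulated and 100 down-regulated genes had a log2 fold change of at least 3 in size. Levels are given below in counts and in CPM, the count of a gene per 1000000 counts of its library, with library sizes scaled by edgeR's TMM method. The numbers of calls depended on the WT +Pi libraries. Without WT +Pi replicate 1, 2, or 3, they were 1308 up and 997 down, 1619 up and 1213 down, and 1408 up and 1087 down. The minimum set the balance of directions as well. With edgeR's own filter, which let in 25163 genes, 2128 genes rose and 3834 fell, and the genes that rose made up 35.7% of the calls instead of 55.5%. The median of all genes then lay at -0.28.

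**Figure D1:**
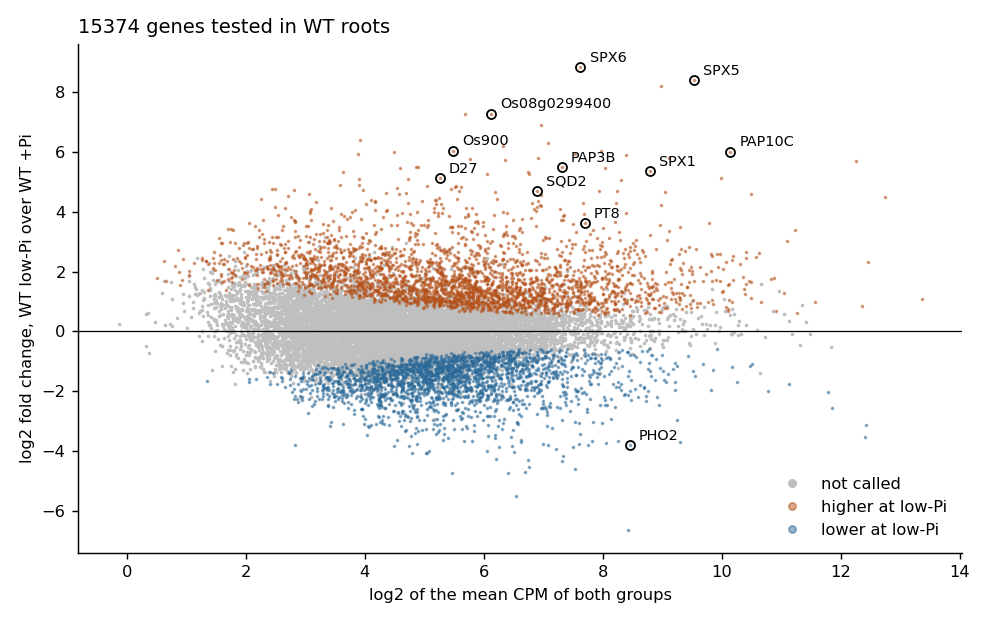
Log2 fold change of WT low-Pi over WT +Pi (vertical axis) against the log2 of the mean CPM of both groups (horizontal axis), 1 point for each of the 15374 genes tested, colored by call at an adjusted p of 0.05. SPX6 and SPX5 lie above a log2 fold change of 8, and PHO2 lies at -3.79.

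The 8 lists of phosphate starvation genes, together with lists of Pi regulators and of SL genes, held 150 genes, of which 82 passed the minimum. Of the 82, 37 (45.1%) rose and 13 (15.9%) fell, and their median log2 fold change was 0.97. Among the 37 that rose, the highest CPM was in WT low-Pi replicate 3 for 31 genes, in replicate 1 for 4, and in replicate 2 for 2. Over all 2765 genes that rose, it was in replicate 3 for 1184, in replicate 1 for 990, and in replicate 2 for 591. Without WT low-Pi replicate 3, 36 of the 37 were still called higher.

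**Figure D2:**
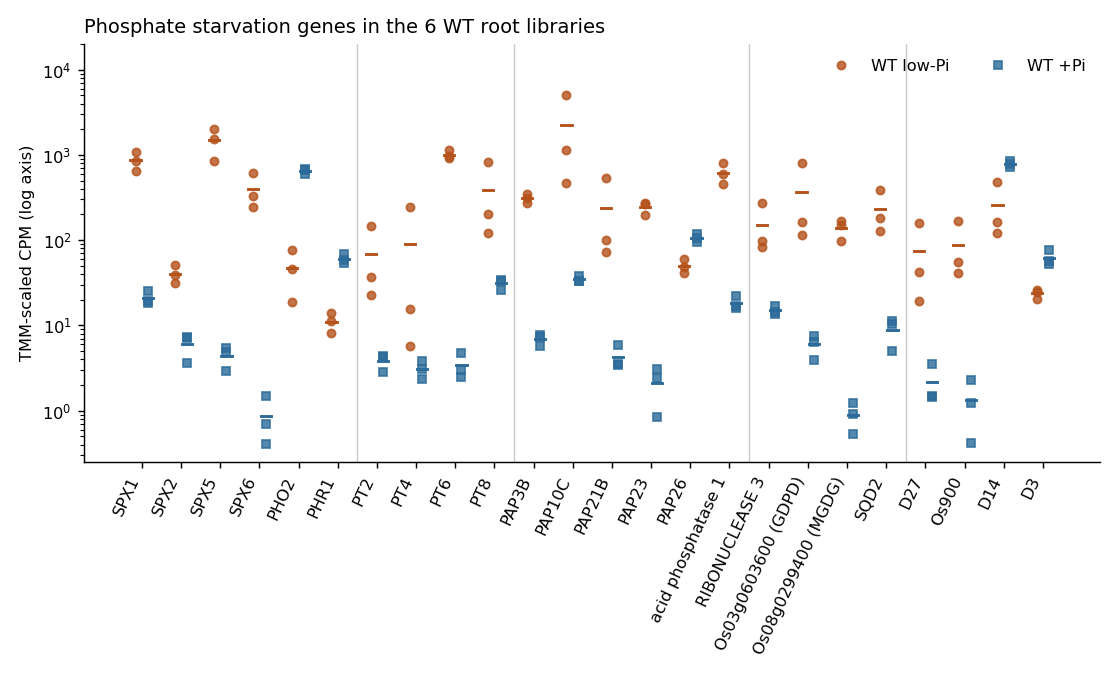
TMM-scaled CPM on a log axis for 24 phosphate starvation genes, with 1 point per library and a bar at the mean of the 3 libraries, WT low-Pi to the left of WT +Pi. In PT4, the 3 WT low-Pi libraries spread widely around a mean of 89.7 CPM, whereas those of PT6 lie close to a mean of 1009 CPM.

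The SPX genes, whose products sense the phosphate status of the cell, included SPX6 and SPX5, which had the largest log2 fold changes of the named genes that passed the minimum. The number of SPX genes that rose was 4, and 7 without WT low-Pi replicate 3. SPX6 (Os07g0614700, chromosome 7 from 25326762 to 25327995, protein-coding) had 9984, 6709, and 14464 counts in WT low-Pi and 17, 63, and 25 counts in WT +Pi. Its log2 fold change was 8.83 (SE 0.64, edgeR adjusted p = 0.00021). SPX5 (Os03g0406100, chromosome 3 from 16645244 to 16646434) gave 46846, 23301, and 48465 counts in WT low-Pi and 228, 126, and 173 counts in WT +Pi. It reached 1477 ± 598 CPM at low-Pi, against 4.41 ± 1.3 CPM at +Pi (SD, n = 3 each), equal to a log2 fold change of 8.39 (SE 0.48). SPX1 (Os06g0603600, chromosome 6 from 23875437 to 23879965), a partner of PHR2, had 26040, 17989, and 25560 counts in WT low-Pi and 773, 827, and 901 counts in WT +Pi. This was a log2 fold change of 5.36 (SE 0.29, edgeR adjusted p = 7.74e-05). In all of these the low-Pi libraries lay above the +Pi libraries with no overlap. SPX2 (Os02g0202200) rose less, with 40.3 ± 9.55 CPM at low-Pi and 5.99 ± 2.07 CPM at +Pi (SD, n = 3 each). The only SPX gene called lower was SPX-MFS3 (Os06g0129400), of a subfamily of vacuolar phosphate transporters. It had 646, 782, and 528 counts in WT low-Pi and 2829, 2637, and 2294 counts in WT +Pi (log2 fold change -1.43, SE 0.24). The other 6 of the 11 tested SPX genes were not called and lay between -0.69 and 1.57. Of 5 further genes on the list, 1 had no row and 4 missed the minimum. SPX3 (Os10g0392600) missed it because 2 WT +Pi libraries held no count. It had 449, 415, and 1230 counts in WT low-Pi and 0, 28, and 0 counts in WT +Pi, and was called higher with edgeR's own filter (adjusted p = 0.0448).

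Of 4 regulators of the pathway, 2 fell and 2 were not called. PHO2 (Os05g0557700, chromosome 5 from 27740218 to 27749525, named LEAF TIP NECROSIS 1 in the tables) had 577, 2101, and 1091 counts in WT low-Pi and 29022, 25370, and 23952 counts in WT +Pi. Its level was 47.1 ± 28.8 CPM at low-Pi and 652 ± 52.4 CPM at +Pi (SD, n = 3 each), so that it fell by 3.79 on the log2 scale (SE 0.47, edgeR adjusted p = 0.000973). PHR1 (Os03g0329900), a MYB factor related to PHR2, had 345, 221, and 329 counts in WT low-Pi and 2850, 2328, and 2112 counts in WT +Pi, and fell by 2.45 on the log2 scale (SE 0.30). PHR2 itself (Os07g0438800) had 580, 1382, and 1301 counts in WT low-Pi and 2702, 3085, and 2553 counts in WT +Pi. Scaled to library size, its log2 fold change of -0.74 (SE 0.38) did not pass the test (edgeR adjusted p = 0.161). PHF1 (Os07g0187700), which lets phosphate transporters leave the endoplasmic reticulum, was at 81.7 ± 49.5 CPM at low-Pi and 64 ± 0.823 CPM at +Pi (SD, n = 3 each), within the spread of the libraries.

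Genes named phosphate transporters rose in 5 cases and fell in none of the 13 that were tested, PHF1 included. The median log2 fold change of the 13 was 1.04, and 8 rose without WT low-Pi replicate 3. PT6 (Os08g0564000, chromosome 8 from 28244202 to 28246028), a high-affinity transporter of the PHT1 family, had 34450, 25317, and 23035 counts in WT low-Pi and 126, 105, and 170 counts in WT +Pi. This was 1009 ± 112 CPM at low-Pi and 3.41 ± 1.21 CPM at +Pi (SD, n = 3 each), equal to a log2 fold change of 8.21 (SE 0.36, edgeR adjusted p = 2.55e-05). The next 3 transporters differed more between libraries. PT8 (Os10g0444700), a major uptake transporter of rice roots, had 6135, 3310, and 19675 counts in WT low-Pi and 1439, 1122, and 1177 counts in WT +Pi (log2 fold change 3.62, SE 0.67). PT2 (Os03g0150800), a low-affinity transporter, had 686, 1012, and 3436 counts in WT low-Pi and 186, 182, and 101 counts in WT +Pi (log2 fold change 4.14, SE 0.71). PT4 (Os04g0186400) had 466, 156, and 5894 counts in WT low-Pi and 99, 130, and 136 counts in WT +Pi. Its log2 fold change of 4.87 (SE 1.29, edgeR adjusted p = 0.0212) became 1.79 without WT low-Pi replicate 3. Its call was kept in 9 of 15 alternative fits and was lost without any 1 of the WT +Pi libraries. PT15 (Os02g0767500) rose by a smaller amount, with 821 ± 154 CPM at low-Pi and 327 ± 32.5 CPM at +Pi (SD, n = 3 each). The remaining 8 tested genes lay between 0.08 and 1.57 on the log2 scale and were not called.

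Of 17 genes of this list with a row in either table that missed the minimum, among them 2 cis-natural antisense transcripts (Os02g0809700 and Os06g0493700) and PHOSPHATE TRANSPORTER TRAFFIC FACILITATOR 1-LIKE (Os03g0799900), 15 were at 0 or without a row in at least 1 WT low-Pi library, and 7 of those 15 had at least 10 counts in every WT +Pi library. Some were found nearly only at low-Pi. PT10 (Os06g0325200) had 124, 151, and 949 counts in WT low-Pi and 0 in each WT +Pi library, and was thus at least 219-fold higher (mean CPM against a floor of 3 counts per library). PT9 (Os06g0324800) had 1582, 1006, and 7489 counts in WT low-Pi and no row in the +Pi table. PT3 (Os10g0444600) had 0, 78, and 1135 counts in WT low-Pi and 0 in each WT +Pi library. In WT the reverse held for PT23 (Os05g0451100), with 0 counts in each low-Pi library and 330, 206, and 93 counts at +Pi. In Os1400 low-Pi it had 176, 132, and 219 counts. Of the 24350 genes with at least 10 counts in all WT +Pi libraries, 2258 were at 0 or without a row in all WT low-Pi libraries. The size of the fall of PT23 is therefore not given.

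Purple acid phosphatases (PAPs), metal-containing enzymes that cleave phosphate from organic esters in the apoplast and vacuole, rose in 9 of 17 tested members and fell in 2, with a median log2 fold change of 1.90. The list was taken by protein domain and includes 1 gene named NUCLEOTIDE PYROPHOSPHATASE/PHOSPHODIESTERASE 1. PAP3B (Os10g0116800) was the most even of them, with 8275, 8453, and 8320 counts in WT low-Pi and 307, 246, and 275 counts in WT +Pi (log2 fold change 5.48, SE 0.25, edgeR adjusted p = 2.55e-05). PAP23 (Os08g0280100) had 8084, 5467, and 6565 counts in WT low-Pi and 128, 36, and 86 counts in WT +Pi (log2 fold change 6.88, SE 0.51). PAP1D (Os12g0576600) had 471, 852, and 1016 counts in WT low-Pi and 18, 15, and 10 counts in WT +Pi (log2 fold change 6.38, SE 0.57). The low-Pi libraries of these genes were all above the +Pi libraries. PAP10C (Os12g0637100, chromosome 12 from 27303890 to 27307145) reached the highest level of the list, with 34981, 13013, and 120342 counts in WT low-Pi and 1382, 1404, and 1358 counts in WT +Pi. Its mean was 2230 ± 2476 CPM at low-Pi and 34.6 ± 3.02 CPM at +Pi (SD, n = 3 each), and its log2 fold change of 6.01 became 4.57 without WT low-Pi replicate 3. PAP21B (Os11g0151700) had the same spread, with 3066, 1985, and 12810 counts in WT low-Pi and 149, 145, and 208 counts in WT +Pi. PAP10A (Os01g0776600) and PAP15 (Os03g0848200) rose by 1.90 and 3.68 on the log2 scale. PAP3A (Os11g0549615) rose by 2.11 and was called in 10 of 15 alternative fits, and NUCLEOTIDE PYROPHOSPHATASE/PHOSPHODIESTERASE 1 (Os08g0531000) rose by 2.30 and was called in 12 of 16. The 2 members that fell were PAP26 (Os06g0643900) and PAP1C (Os12g0576700). PAP26 had 49.5 ± 9.78 CPM at low-Pi and 107 ± 10.8 CPM at +Pi, and PAP1C had 71.5 ± 18.6 CPM at low-Pi and 141 ± 18.3 CPM at +Pi (SD, n = 3 each). The 6 members not called lay between -0.35 and 1.40. All 7 members that missed the minimum despite a row were at 0 or without a row in at least 1 WT low-Pi library, and 5 further members had no row.

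Other acid phosphatases were taken by the domains of plant acid phosphatases of class B and of a HAD-like phosphatase family. Acid phosphatase 1 (Os01g0720400) had 18079, 12444, and 19066 counts in WT low-Pi and 927, 675, and 609 counts in WT +Pi. This was a log2 fold change of 5.07 (SE 0.30, edgeR adjusted p = 0.000105), with no overlap of the groups. Os02g0226200 rose by 2.16 and Os03g0332533 fell by 2.45 on the log2 scale. The other 4 tested members, between -0.14 and 2.99, were not called.

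S-like ribonucleases of the T2 family, which break down RNA outside the cytosol, rose in 3 of 4 tested members. RIBONUCLEASE 6 (Os01g0897300) had 5578, 2881, and 3523 counts in WT low-Pi and 537, 667, and 615 counts in WT +Pi. RIBONUCLEASE 3 (Os08g0434100) had 2952, 2264, and 6513 counts in WT low-Pi and 568, 619, and 606 counts in WT +Pi. RIBONUCLEASE 1 (Os07g0630400) had 3290, 3134, and 9865 counts in WT low-Pi and 1477, 1471, and 1544 counts in WT +Pi. The log2 fold changes were 3.26, 3.33, and 2.50 for these 3 genes, and the member not called was at 0.39. RIBONUCLEASE 4 (Os09g0537700) missed the minimum, with 179, 73, and 1096 counts in WT low-Pi and 0, 31, and 14 counts in WT +Pi.

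All 4 genes listed for galactolipid and sulfolipid synthesis were tested, and 3 rose. Os08g0299400 (chromosome 8 from 12266091 to 12269520), with the domain of monogalactosyldiacylglycerol (MGDG) synthases, had 4567, 2651, and 3950 counts in WT low-Pi and 38, 23, and 44 counts in WT +Pi. Its log2 fold change was 7.27 (SE 0.44, edgeR adjusted p = 0.000105). SQD2 (Os01g0142300, chromosome 1 from 2275239 to 2278860), which makes the sulfolipid of plastid membranes, had 3857, 4972, and 9106 counts in WT low-Pi and 212, 481, and 371 counts in WT +Pi (log2 fold change 4.69, SE 0.51). Another gene annotated as MGDG synthase, Os02g0802700, had 3316, 3410, and 3370 counts in WT low-Pi and 1455, 1761, and 1591 counts in WT +Pi (log2 fold change 1.64, SE 0.22). Glycerophosphodiester phosphodiesterases, which act on deacylated phospholipids, rose in 4 of 7 tested members and fell in 1. The largest rise was that of Os03g0603600, with 4977, 3142, and 19298 counts in WT low-Pi and 166, 325, and 230 counts in WT +Pi (log2 fold change 5.92, SE 0.82). Os04g0394100, Os04g0472300, and Os02g0514500 rose by 4.43, 3.03, and 2.77, and Os08g0503200 fell by 1.56 on the log2 scale (edgeR adjusted p = 0.0485), a call kept in 7 of 16 alternative fits. Phospholipases C and D were divided, with 3 of 13 tested members higher and 4 lower (2 lower without any 1 of the WT +Pi libraries). The non-specific phospholipases NPC3 (Os11g0593000), NPC5 (Os01g0102000), and NPC1 (Os03g0826600) rose by 4.29, 2.39, and 0.91 on the log2 scale. NPC2 (Os01g0955000) fell by 1.10, PHOSPHOLIPASE C4 (Os05g0127200) by 1.93, PHOSPHOLIPASE D beta 1 (Os10g0524400) by 1.41, and PHOSPHOLIPASE D delta 1 (Os09g0543100) by 0.87. NPC3 again varied at low-Pi, with 423, 454, and 2845 counts in WT low-Pi and 58, 178, and 76 counts in WT +Pi.

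SL genes were called in both directions. Os900 (Os01g0700900), the enzyme that makes 4-deoxyorobanchol, and D27 (Os11g0587000), the carotene isomerase at the start of the pathway, rose by 6.04 (SE 0.80) and 5.12 (SE 0.85) on the log2 scale. Both were highest in WT low-Pi replicate 3, with 1667, 1131, and 3991 counts of Os900 in WT low-Pi and 52, 99, and 15 counts in WT +Pi. D17 (Os04g0550600), a carotenoid cleavage dioxygenase of the pathway, had 301, 327, and 1005 counts in WT low-Pi and 244, 101, and 165 counts in WT +Pi (log2 fold change 2.32, SE 0.66, edgeR adjusted p = 0.0274) and was called in 10 of 16 alternative fits. NSP1 (Os03g0408600), a GRAS transcription factor of symbiosis and SL synthesis, had 86, 172, and 333 counts in WT low-Pi and 25, 21, and 28 counts in WT +Pi. The receptor and its F-box partner fell. D14 (Os03g0203200), the receptor of SLs, had 3653, 4466, and 11583 counts in WT low-Pi and 32507, 31082, and 30366 counts in WT +Pi (log2 fold change -1.61, SE 0.48, edgeR adjusted p = 0.032), a call kept in 9 of 16 alternative fits. D3 (Os06g0154200), the F-box protein that works with D14, had 754, 714, and 480 counts in WT low-Pi and 3173, 2225, and 2016 counts in WT +Pi (log2 fold change -1.37, SE 0.27). The repressor D53 (Os11g0104300) was not called (log2 fold change -0.65, edgeR adjusted p = 0.0563). D10, NSP2, OsMAX1D (Os02g0221900), and OsMAX1b (Os06g0565100) missed the minimum. D10 (Os01g0746400) had 207, 76, and 1583 counts in WT low-Pi and 77, 54, and 0 counts in WT +Pi.

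Outside these lists, further genes named for phosphate, metals, or defense were among those with the smallest p-values. PHOSPHATE-LIMITATION INDUCIBLE GENE 1 (Os01g0838350, chromosome 1 from 35958635 to 35959019) gave 38001, 27044, and 23956 counts in WT low-Pi and 866, 813, and 679 counts in WT +Pi (log2 fold change 5.79, SE 0.23). CADMIUM TOLERANT 4 (Os02g0208500) had 13907, 12358, and 13733 counts in WT low-Pi and 314, 255, and 329 counts in WT +Pi (log2 fold change 6.04, SE 0.28). Both had narrow spreads in either group. Thionin 7 (Os06g0514100) and Thionin 6 (Os06g0513943), of a family of antimicrobial peptides, rose by 5.45 and 4.66 on the log2 scale. They lie near each other on chromosome 6, and how reads of such related genes were divided between them is not given in the sources used here.

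The genes that fell included enzymes that make phosphoenolpyruvate (PEP). The cytosolic pyruvate orthophosphate dikinase (Os03g0432100, chromosome 3 from 18153151 to 18160127), which makes PEP from pyruvate, had 91, 297, and 168 counts in WT low-Pi and 27706, 23354, and 30033 counts in WT +Pi. It fell to 6.96 ± 3.91 CPM at low-Pi, against 683 ± 150 CPM at +Pi (SD, n = 3 each), equal to a log2 fold change of -6.62 (SE 0.51, edgeR adjusted p = 0.000236). PEP carboxykinase (Os10g0204400), which makes PEP from oxaloacetate, had 110, 96, and 96 counts in WT low-Pi and 2078, 3059, and 2330 counts in WT +Pi (log2 fold change -4.06, SE 0.30). Of the enzymes that consume PEP without producing ATP, 2 rose. PEP carboxylase 2b (Os09g0315700) had 558, 409, and 357 counts in WT low-Pi and 13, 45, and 53 counts in WT +Pi, and PEP carboxylase 2a (Os08g0366000) had 1482, 326, and 591 counts in WT low-Pi and 243, 254, and 166 counts in WT +Pi. The other 2 of the 4 tested PEP carboxylases were not called. A pyruvate kinase gene, Os07g0181000, whose product consumes PEP and yields ATP, rose as well, with 4703, 4498, and 4013 counts in WT low-Pi and 1365, 1813, and 1022 counts in WT +Pi (log2 fold change 2.24, SE 0.23).

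Of 35 tested glycolytic enzymes, 15 rose and 3 fell, with a median log2 fold change of 0.63, and 8 rose without WT +Pi replicate 1. The cytoplasmic aldolase C-2 (Os05g0402700) had 79218, 68618, and 63334 counts in WT low-Pi and 18024, 24235, and 13982 counts in WT +Pi (log2 fold change 2.49, SE 0.22). Inorganic pyrophosphatases, which split pyrophosphate into 2 phosphates, rose in 5 of 10 tested members and fell in 1. Os02g0704900 had 4879, 3131, and 2717 counts in WT low-Pi and 423, 633, and 422 counts in WT +Pi, and Os05g0114000 had 12264, 12950, and 11589 counts in WT low-Pi and 3016, 3152, and 2588 counts in WT +Pi. Sucrose synthases and invertases were called higher in 2 and lower in 2 of 12 (16.7% each), near the 18.0% and 14.4% of all genes. The vacuolar invertase 2 gene (Os02g0106100) rose by 3.53, and the cell wall invertase GRAIN INCOMPLETE FILLING 1 (Os04g0413500) fell by 2.31 on the log2 scale. SWEET sugar carriers rose in 5 of 9 members, with SWEET13 (Os12g0476200) and SWEET2A (Os01g0541800) at log2 fold changes of 2.37 and 1.85, and fell in 2. Without any 1 of the WT +Pi libraries, 3 SWEET genes rose.

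The nitrate reductase gene OsNIA1 (Os02g0770800) had 396, 410, and 80 counts in WT low-Pi and 9257, 7189, and 7872 counts in WT +Pi (log2 fold change -4.28, SE 0.53). NITRATE-INDUCIBLE, GARP-TYPE TRANSCRIPTIONAL REPRESSOR 1 (Os02g0325600) had 4631, 4700, and 7763 counts in WT low-Pi and 399, 635, and 488 counts in WT +Pi (log2 fold change 4.10, SE 0.37). Nitrate and peptide transporters of the POT family were called higher in 5 and lower in 5 of 24 tested members (20.8% each, against 18.0% and 14.4% of all genes), and 64 with a row missed the minimum. The POT genes Os10g0579800 and Os04g0691400 rose by 4.27 and 2.61 on the log2 scale. The ammonium transporter AMT2;1 (Os05g0468700) rose by 2.50, while AMT1;1 (Os04g0509600, log2 fold change 1.49) did not pass the test. None of 4 sulfate transporters was called by edgeR, although 3 had an unadjusted p under 0.05, and 2 were called by DESeq2 and 0 by limma. The single tested nicotianamine synthase was not called. The metallothionein genes, whose products bind metals, went in both directions. METALLOTHIONEIN 2A (Os01g0149800) had 795, 818, and 594 counts in WT low-Pi and 10274, 9288, and 9346 counts in WT +Pi (log2 fold change -3.16, SE 0.21), and METALLOTHIONEIN I-2B (Os01g0974200) had 111683, 60320, and 54382 counts in WT low-Pi and 19521, 18198, and 15855 counts in WT +Pi (log2 fold change 2.61, SE 0.26). NRAMP6 (Os01g0503400) and BACTERIOCIDE EFFECT 3 (Os06g0676000), both on the list of Nramp and ZIP metal transporters, rose by 2.37 and 1.84, and the list had 3 of 14 members higher and 5 lower. Aquaporins were called lower in 6 (28.6%) and higher in 4 (19.0%) of 21 members, and the plasma membrane aquaporins PIP2;4 (Os07g0448100) and PIP2;9 (Os07g0448200) fell by 1.97 and 2.69 on the log2 scale. These counts moved with the WT +Pi libraries. Without WT +Pi replicate 1, 0 POT genes were called lower and 1 aquaporin was called higher, and without WT low-Pi replicate 2, 9 POT genes were called higher.

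Class III peroxidases, which cross-link wall polymers and make or use hydrogen peroxide, rose in 31 of 79 tested members (39.2%) and fell in 8 (10.1%). Over all genes tested, the shares were 18.0% higher and 14.4% lower. The number of peroxidases that fell ran from 3 without WT +Pi replicate 1 or 3 to 16 without WT low-Pi replicate 3. Class III peroxidase 32 (Os02g0833900) had 3912, 2167, and 2881 counts in WT low-Pi and 314, 387, and 188 counts in WT +Pi, and class III peroxidase 17 (Os01g0543100) had 3132, 2357, and 1821 counts in WT low-Pi and 19267, 18623, and 14750 counts in WT +Pi. Expansins, which loosen walls during growth, rose in 9 of 20 and fell in 1, and 4 rose without WT +Pi replicate 1 and 5 without replicate 3. BETA-EXPANSIN 6 (Os10g0555600) and ALPHA-EXPANSIN 1 (Os04g0228400) rose by 3.22 and 3.20 on the log2 scale. Xyloglucan endotransglycosylases rose in 4 of 12 and fell in none, led by XTH4 (Os08g0240500) and XTH2 (Os11g0539200) with log2 fold changes of 2.96 and 2.67. Cellulose synthases were called higher in 1 (7.14%) and lower in 3 (21.4%) of 14. CELLULOSE SYNTHASE A3 (Os07g0424400) had 230 ± 46 CPM at low-Pi and 710 ± 49 CPM at +Pi, and CELLULOSE SYNTHASE LIKE F6 (Os08g0160500), which makes mixed-linkage glucan, had 160 ± 18.4 CPM at low-Pi and 72.2 ± 19.2 CPM at +Pi (SD, n = 3 each). Pectinesterases were called higher in 2 and lower in 2 of 10 (20.0% each), near the shares of all genes. PECTIN METHYLESTERASE 2 (Os01g0311800) fell by 2.91, and PECTIN METHYLESTERASE 29 (Os10g0407000) rose by 1.29.

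Core histones rose in 22 of 27 tested members (81.5%) and fell in none, with a median log2 fold change of 1.63. Over all genes tested, 18.0% rose and 14.4% fell. Leaving out 1 library at a time gave from 15 to 22 histones higher. Over all alternative fits the number ran from 1 to 23, where the fit of genes of at least 1000 bases tested only the longer members. H2B.11 (Os01g0839500, chromosome 1 from 36014027 to 36014684) gave 36375, 22646, and 23722 counts in WT low-Pi and 3837, 4870, and 3100 counts in WT +Pi (log2 fold change 3.37, SE 0.24, edgeR adjusted p = 0.000208), and H2B.9 (Os05g0574300) rose by 2.69. Histone genes have near-identical copies, so the division of reads among them is uncertain. Tubulins rose in 9 of 15 and fell in 1, with TUBULIN ALPHA-1 CHAIN (Os07g0574800) at a log2 fold change of 2.11 and BETA-TUBULIN 1 (Os01g0282800) at 1.75. Of 17 genes with a cyclin domain, 1 rose (5.88%) and 3 fell (17.6%), and CYCLIN-B2-2 (Os06g0726800) and CYCLIN-T1-6 (Os12g0485400) fell by 1.95 and 1.49. Without any 1 of the WT +Pi libraries, 0 cyclins were called higher and 0 lower. None of 6 MCM helicase subunits, which license replication, was called by edgeR, DESeq2, or limma, and 0 had an unadjusted p under 0.05. They lay between -0.86 and 0.30. Kinesin motors rose in 1 (3.85%) and fell in 4 (15.4%) of 26, with Os11g0648100 at -2.22 and Os08g0547500 at 2.10 on the log2 scale. These lists differed in gene length, with a median of 781 bases for histones, 1752 bases for tubulins, 1775 bases for cyclins, 2740 bases for MCM subunits, and 2917 bases for kinesins.

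**Figure D3:**
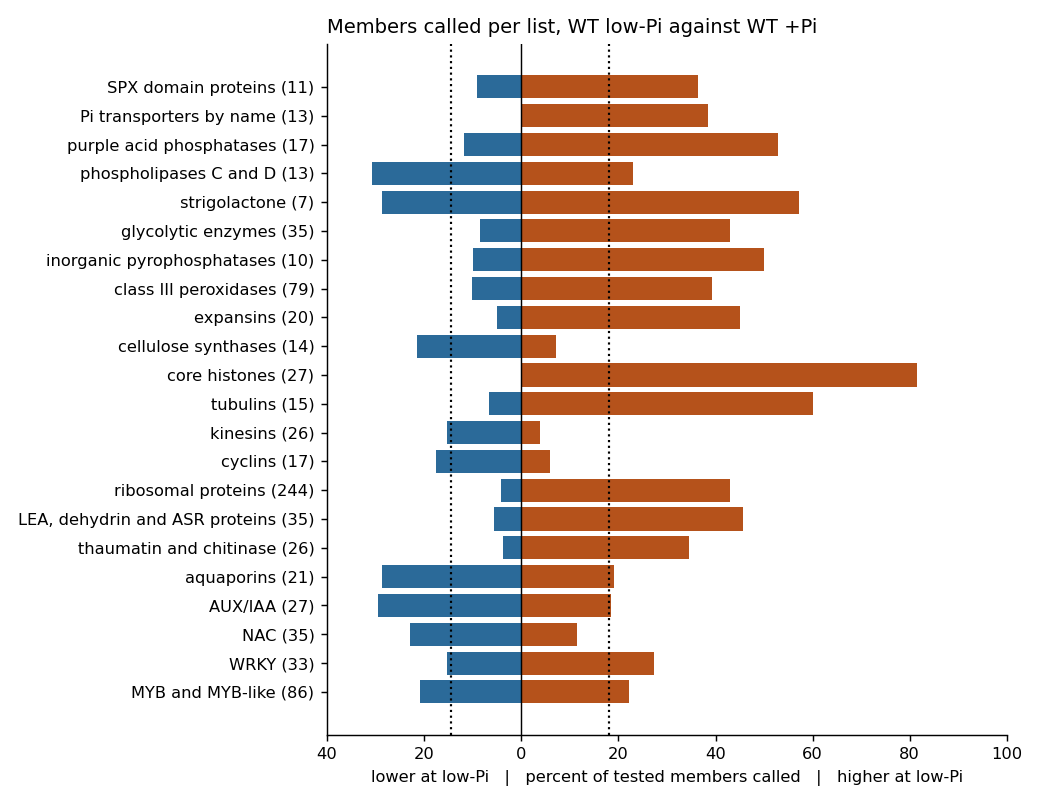
Percent of the tested members of 22 lists that were called higher (right) or lower (left) in WT low-Pi than in WT +Pi, with the number tested in parentheses. The dotted lines mark the shares over all 15374 genes, 18.0% higher and 14.4% lower, and core histones reach 81.5% on the higher side.

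Of 244 tested ribosomal protein genes, 105 (43.0%) rose and 10 (4.10%) fell, with a median log2 fold change of 0.82 and a median length of 830 bases. The number that rose was 62 without WT +Pi replicate 1 and 65 without replicate 3, and reached 143 when another library was left out. The number that fell ran between 6, without WT +Pi replicate 1 or 2, and 19, without WT low-Pi replicate 2. Over all alternative fits, from 27 to 143 rose, where the fit of genes of at least 1000 bases tested only the longer members. Os05g0490100 had 32101, 22323, and 14579 counts in WT low-Pi and 4372, 6323, and 4311 counts in WT +Pi, and Os01g0100700 had 15449, 16124, and 12853 counts in WT low-Pi and 4189, 6202, and 3657 counts in WT +Pi. Proteasome subunits rose in 8 of 21 (5 without any 1 of the WT +Pi libraries) and fell in 1, led by Os06g0167600 and Os06g0139900 with log2 fold changes of 1.94 and 1.44. HSP70 and HSP90 chaperones rose in 9 of 21 (4, 4, and 5 without WT +Pi replicate 1, 2, and 3) and fell in 3, and the HSP70 genes Os03g0821100 and Os01g0180800 rose by 2.37 and 1.78. Small heat shock proteins had 1 call in each direction among 11 (9.09% each, against 18.0% and 14.4% of all genes). Os02g0758000 rose by 1.14, and Os10g0159600 fell by 1.11. The co-chaperone gene DnaJ A4 (Os03g0648400) had the smallest p among genes that fell, with 549, 497, and 363 counts in WT low-Pi and 14703, 10848, and 11037 counts in WT +Pi (log2 fold change -4.15, SE 0.23). Nuclear/Nucleolar GTPase 2 (Os03g0352400), a factor of ribosome assembly, fell by 2.80 on the log2 scale, and THIOREDOXIN H-TYPE 5 (Os07g0190800) fell by 3.67.

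Gene length moved with the direction of change in WT. When the tested genes were divided into 5 equal classes by length, the median log2 fold change was 0.48 in the shortest class (up to 985 bases), 0.17, 0.04, and -0.09 in the next, and -0.31 in the longest (from 2530 bases). The share called higher was 28.6% in the shortest and 8.46% in the longest class, and the share called lower was 9.98% and 21.7%. In Os1400, the median ranged from 0.15 in the shortest to -0.03 in the longest class of the same genes. The share called higher was 81.5% for histones and 43.0% for ribosomal proteins, beside 28.6% for all genes of the shortest class. The part of gene length in these shares was not tested. When the 12207 genes of at least 1000 bases were fitted alone, 2060 were up-regulated and 1636 were down-regulated.

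**Figure D4:**
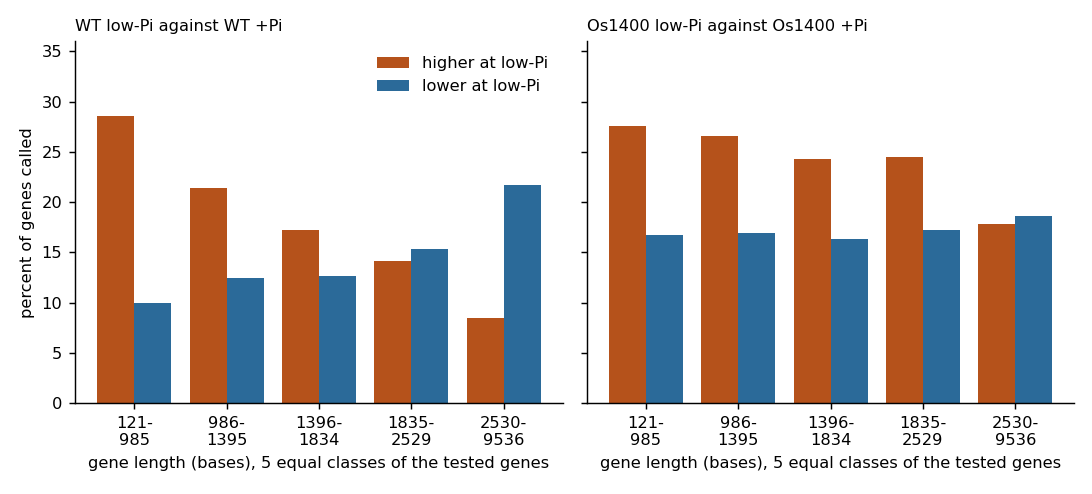
Percent of genes called higher or lower at low-Pi (bars) in 5 equal classes of the tested genes by length, in WT (left) and for the same genes where tested in Os1400 (right). In WT the share called higher drops to 8.46% in the longest class, against 28.6% in the shortest, and in Os1400 the corresponding shares are 17.8% and 27.6%.

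Over all genes tested, 18.0% were called higher and 14.4% lower. Of the stress-related families, LEA, dehydrin and ASR proteins, which protect cells from drying, rose in 16 of 35 (45.7%) and fell in 2 (5.71%). Without WT +Pi replicate 1 or 3, 10 rose. Os01g0195400 had a log2 fold change of 2.03, and DEHYDRIN 1 (Os02g0669100) was among those that fell (-1.98). Thaumatin-like proteins and chitinases rose in 9 of 26 (3, 5, and 3 without WT +Pi replicate 1, 2, and 3) and fell in 1, and the thaumatin gene Tolerance Of Nitrogen Deficiency 1 (Os12g0630100) rose by 3.03 while Os08g0522500 rose by 1.15. PR-1 type proteins rose in 3 and fell in 2 of 7, and Os02g0787000 and PATHOGENESIS-RELATED GENE 1-21 (Os02g0786500) rose by 3.52 and 2.21. Glutathione S-transferases were called higher in 9 (23.7%) and lower in 7 (18.4%) of 38, with GSTU9 (Os10g0529400) at 3.15 and Os10g0530750 at -2.79. Without WT +Pi replicate 1, 2, and 3, these numbers were 2, 4, and 3 higher and 3, 4, and 3 lower. Cytochrome P450 genes were called higher in 10 and lower in 7 of 65 (15.4% and 10.8%), and 200 with a row missed the minimum. Of the P450 genes, 6 were higher without WT +Pi replicate 1, 17 were higher without WT low-Pi replicate 2, and 16 were lower without WT low-Pi replicate 3. P-450 93G1 (Os04g0101400) rose by 4.0 and GRAIN LENGTH 3.2 (Os03g0417700) fell by 3.48. The root family with a hydrophobic seed protein domain rose in 11 of 14 members (8 to 11 when 1 library was left out) and fell in 2. Its member RCc2 (Os10g0551800), expressed in roots like RCc3, had 64901, 40994, and 54767 counts in WT low-Pi and 1522, 4165, and 1296 counts in WT +Pi (log2 fold change 5.13, SE 0.47), and hybrid proline- or glycine-rich protein 17 (Os10g0552300) rose by 4.18. RCc3 was the 1 member not called. CASP-like proteins were called higher in 4 and lower in 2 of 25, and BRASSINOLIDE ENHANCED GENE 3 (Os05g0245300) and Os04g0460400 rose by 3.12 and 1.86.

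AUX/IAA-domain proteins, which include auxin response factors, rose in 5 (18.5%) and fell in 8 (29.6%) of 27, and 5 fell without any 1 of the WT +Pi libraries. IAA11 (Os03g0633500) had 3332, 3175, and 2546 counts in WT low-Pi and 973, 994, and 1003 counts in WT +Pi (log2 fold change 2.16, SE 0.22), whereas AUXIN RESPONSE FACTOR 16 (Os01g0236300) had 1507, 1247, and 1256 counts in WT low-Pi and 6403, 6360, and 4545 counts in WT +Pi (log2 fold change -1.53, SE 0.20). PIN-type auxin carriers rose in 2 of 7, namely PIN9 (Os01g0802700, 1.66) and PIN5A (Os01g0919800, 1.23). No GH3 enzyme, which joins hormones to amino acids, was called among 3 by edgeR, where 1 had an unadjusted p under 0.05 and 1 was called by DESeq2 and 0 by limma. Of 16 response regulators, 2 rose (12.5%) and 3 fell (18.8%), shares near those of all genes, and the risers were the A-type regulators RR10 (Os12g0139400, 1.58) and RR9 (Os11g0143300, 1.32) of cytokinin signaling. Without WT +Pi replicate 1, 2, and 3, the number of response regulators that rose was 0, 1, and 0. The number that fell was likewise 0, 1, and 0.

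The shares of transcription factors called were set beside the 18.0% higher and 14.4% lower of all genes. They were 21.7% and 19.6% for AP2/ERF genes, 22.1% and 20.9% for MYB and MYB-like genes, 19.4% and 9.68% for bHLH genes, 27.3% and 15.2% for WRKY genes, 11.4% and 22.9% for NAC genes, and 3.85% and 7.69% for GRAS genes. Without WT +Pi replicate 1, 2, or 3 the number higher was 3, 4, and 4 for AP2/ERF genes and 9, 9, and 10 for MYB and MYB-like genes. WRKY genes rose in 9 and fell in 5 of 33, with WRKY23 (Os01g0734000) and WRKY68 (Os04g0605100) at log2 fold changes of 3.90 and 1.49. NAC genes rose in 4 and fell in 8 of 35, where NAC62 (Os05g0563000) rose by 3.71 and NAC36 (Os05g0426200) fell by 1.99. AP2/ERF genes rose in 10 and fell in 9 of 46, with ERF54 (Os01g0657400) at 3.81 and Os02g0157950 at 2.35. MYB and MYB-like genes rose in 19 and fell in 18 of 86, with Os04g0676700 at 2.43. The bHLH genes rose in 6 and fell in 3 of 31, with bHLH018 (Os03g0725800) at 1.98 and bHLH098 (Os03g0797600) at -1.53. GRAS genes rose in 1, NSP1, and fell in 2 of 26. SHORT ROOT GENE 1 (Os07g0586900), a regulator of radial patterning in roots, had 375, 328, and 307 counts in WT low-Pi and 2381, 2100, and 2262 counts in WT +Pi (log2 fold change -2.18, SE 0.26). Heat shock factors rose in 3 and fell in 1 of 10, and HSFB4C (Os09g0455200) and HSFB2C (Os09g0526600) rose by 2.59 and 1.21.

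Other genes that the rule named among those that fell were transporters and enzymes of several pathways. UMAMIT15 (Os10g0210500), of a family of amino acid exporters, had 347, 186, and 117 counts in WT low-Pi and 8399, 7748, and 7548 counts in WT +Pi (log2 fold change -4.68, SE 0.36). CINNAMOYL-COA REDUCTASE 10 (Os02g0811800), of the family that feeds lignin synthesis, fell by 4.73 and Multidrug and Toxic compound Extrusion protein 2 (Os05g0554000) by 4.27 on the log2 scale. The protein kinase gene CIPK10 (Os03g0339900) fell by 3.21 and BETA-GALACTOSIDASE 2 (Os06g0573600) by 2.47.

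Protein domains in the gene descriptions were also ranked, over the 278 domains with at least 10 tested members, by the median log2 fold change. The highest medians belonged to the CENP-T histone fold (2.34, 10 of 10 members higher), which is shared by core histones, and to the hydrophobic seed proteins (2.31). Polyketide cyclase and lipid transport proteins followed with 1.76 (6 of 11 higher, 2 lower), and sulfotransferases had 1.51 (4 of 12 higher). At the other end were phosphatidylinositol 3- and 4-kinases (-1.03, 4 of 10 lower), bromodomain proteins (-0.98, 4 of 10 lower), PHD-finger proteins (-0.92, 8 of 25 lower, none higher), and the transmembrane region of ABC transporters (-0.92, 8 of 20 lower). The median length of these members was 564 bases for the CENP-T fold and 4098 bases for the ABC transporters.

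The same contrast in Os1400 used other libraries, and 23273 genes passed its minimum, of which 4310 (18.5%) rose and 3889 (16.7%) fell at low-Pi. Of the 2765 genes up-regulated in WT, 2716 were tested in Os1400, where 1604 (59.1%) rose and 45 (1.66%) fell. Over the 15280 genes tested in both genotypes, 3687 rose and 2619 fell in Os1400. The 1604 genes were 43.5% of those 3687. Of the 2215 genes down-regulated in WT, all tested in Os1400, 1157 (52.2%) fell and 87 (3.93%) rose. The median log2 fold change of the up-regulated genes was 1.66 in WT and 0.76 in Os1400, and that of the down-regulated genes was -1.53 in WT and -0.46 in Os1400. Since the genes were chosen by their calls in WT, the WT medians are those of a selected group.

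An interaction term, fitted across the 12 libraries, asked whether a response differed between the genotypes, and 2252 of 15280 genes (14.7%) differed. Of the 37 phosphate starvation genes that rose in WT, 34 were tested in Os1400, where 32 rose, and 9 of the 34 tested for the difference had a smaller response in Os1400. The 34 were chosen by their calls in WT, which favours a larger response in WT. Neither the number nor the direction is therefore a result about these genes. SPX5 reached 389 ± 48.4 CPM in Os1400 low-Pi and 4.57 ± 1.23 CPM in Os1400 +Pi (SD, n = 3 each), and its log2 fold change was smaller than in WT by 2.08 (interaction -2.08, SE 0.44, edgeR adjusted p = 0.00988). PT6 reached 565 ± 121 CPM in Os1400 low-Pi and 5.17 ± 2.2 CPM in Os1400 +Pi (SD, n = 3 each), with an interaction of -1.54 (SE 0.45). SPX1, PAP10C, PAP23, and D27 differed in the same way, by -1.53, -3.05, -1.75, and -3.63. PHO2 had 172 ± 18 CPM in Os1400 low-Pi and 636 ± 25.9 CPM in Os1400 +Pi (SD, n = 3 each), so that its fall was smaller than in WT (interaction 1.80, SE 0.48). For other genes no difference was called, which does not show that the responses were equal. The interaction was -0.01 (SE 0.70) for the MGDG synthase gene Os08g0299400, -0.04 for PAP3B, 0.26 for acid phosphatase 1, and 0.52 (SE 0.56) for SQD2, and none of these passed the test. For PT4, with a log2 fold change of 4.87 in WT and 1.27 in Os1400, the difference was not called either (-3.69, edgeR adjusted p = 0.13). Core histones rose in 22 of 28 tested members in Os1400, with a median of 0.94, and the response differed for 10 of 27. Ribosomal proteins rose in 154 of 262 and fell in 4. Cyclins rose in 7 of 23, kinesins in 16 of 33, and MCM subunits in 5 of 7 in Os1400. The WT low-Pi libraries were those with fewer genes detected, and the difference between genotypes cannot be told apart from this difference between libraries.

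**Figure D5:**
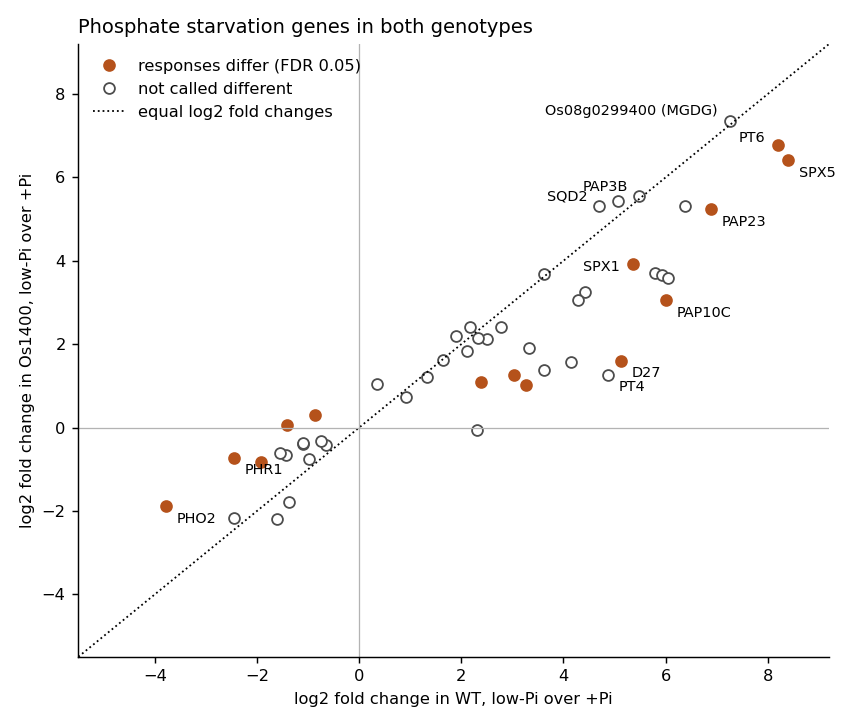
Log2 fold change of low-Pi over +Pi in WT (horizontal axis) and in Os1400 (vertical axis) for 50 named phosphate starvation genes, with filled points where the responses differed at an adjusted p of 0.05 (14 genes) and a dotted line of equal log2 fold changes. PHO2, at -3.79 in WT and -1.89 in Os1400, lies above the line, and SPX5, at 8.39 in WT and 6.41 in Os1400, lies below it.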

How the data were processed

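Root RNA was sequenced as paired-end Illumina libraries, 3 for each of the 4 groups. Per the labels and the submitters' processing notes, the authors aligned reads with HISAT2 2.0.5 and counted them with featureCounts 1.5.0-p3, and they deposited raw counts per gene for each phosphate level and FPKM values, scaled by gene length and library. The genome build, annotation release, and strand setting are not given in the sources used here, and coordinates are those of the count tables. Fold changes and p-values in these tables, which hold the authors' own comparison of genotypes, and 28 columns of per-library values or means were not used. The count tables were joined by gene identifier, and genes with at least 10 counts in all libraries of a comparison were tested with edgeR 4.0.16 (R 4.3.3, TMM scaling, quasi-likelihood test, Benjamini-Hochberg threshold of 0.05). A fold change has low-Pi over +Pi. The interaction term was fitted over all 12 libraries.

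Alternatives were RLE and upper-quartile scaling, edgeR's own filter, no filter, DESeq2 1.42.0, limma 3.58.1 on log2(FPKM + 1), a replicate block, the fit over all 12 libraries, and leaving out each library. After seeing the data, fits of genes of at least 1000 bases and of genes with 100 or more counts in each library were added. Floors cover counting error only. No 2 libraries of a group agreed within sampling noise. The chi-square per gene between 2 libraries of a group, larger where they differ more, ran from 168 to 314 in WT low-Pi. It ran from 18.3 to 38.7 in WT +Pi, from 26.3 to 76.8 in Os1400 low-Pi, and from 25.7 to 34.3 in Os1400 +Pi.

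The members and gene lists were chosen with earlier results of these data known, and the name pattern of the SPX list and the ranking of domains were set after seeing the files. The genes named were the 10 named genes with the smallest p and the 5 with the largest log2 fold change in each direction, all called members of the phosphate lists, and, from every other list, up to 4 members with the smallest p, except that lists without a call are given by their counts. Sequences were not used here.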

Additional observations from a re-analysis of the deposited data

Results flagged for a closer look

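The response to low-Pi differed between the genotypes for 63 of the 153 named genes tested in all 12 libraries (interaction term, adjusted p of 0.05 or less from edgeR). Over all genes tested it differed for 2252 of 15280 (14.7%), with 1075 differences above 0 and 1177 below. Most of the named genes were chosen by their p, size or call in WT, which favours a larger response in WT, so that neither the share nor the direction among them is a result about these genes. Each value below is the log2 fold change in Os1400 minus that in WT. In 62 of the 63 the response was larger in WT, and the exception was the gene for the 24.1 KDA CLASS I HEAT SHOCK PROTEIN (Os02g0758000), with a log2 fold change of 1.14 in WT and 2.73 in Os1400 and a difference of 1.49. The WT low-Pi libraries held fewer detected genes than the others, and the part of this in the differences was not tested.

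Among phosphate starvation genes that rose in WT, the difference was -0.96 for PHOSPHATE-LIMITATION INDUCIBLE GENE 1, -1.54 for PT6, -1.53 for SPX1, -2.08 for SPX5, -1.75 for PAP23, -3.05 for PAP10C, -2.34 for RIBONUCLEASE 6, -1.88 for Os04g0472300, -1.41 for NPC5, and -3.63 for D27. Among those that fell in WT, it was 1.0 for PHOSPHOLIPASE C4, 1.06 for PHOSPHOLIPASE D delta 1, 1.37 for PHOSPHOLIPASE D beta 1, 1.63 for PHR1, and 1.80 for PHO2.

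For other genes that rose in WT, the difference was -2.87 for PEP carboxylase 2b, -1.45 for the pyrophosphatase gene Os02g0704900, -2.02 for AMT2;1, -3.28 for Os10g0579800, -2.05 for Os04g0691400, -1.30 for BACTERIOCIDE EFFECT 3, and -1.16 for METALLOTHIONEIN I-2B. It was -2.47 for class III peroxidase 32, -1.98 for H2B.11, -1.35 for H2B.9, -1.69 for Os08g0547500, -1.87 for Os05g0490100, -0.93 for Os01g0100700, -1.22 for Os06g0167600, and -1.02 for Os01g0180800. It was -0.98 for Os08g0522500, -2.96 for Tolerance Of Nitrogen Deficiency 1, -2.90 for GSTU9, -2.92 for P-450 93G1, -2.52 for RR10, -2.67 for RR9, -3.14 for WRKY23, -1.26 for WRKY68, and -1.94 for NAC62. It was -1.92 for Os02g0157950, -1.07 for bHLH018, -2.54 for Os04g0676700, -2.18 for hybrid proline- or glycine-rich protein 17, and -1.06 for the light-harvesting gene Os11g0242800.

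For other genes that fell in WT, the difference was 3.09 for DnaJ A4, 2.22 for METALLOTHIONEIN 2A, 1.22 for THIOREDOXIN H-TYPE 5, 3.65 for PEP carboxykinase, 1.95 for Nuclear/Nucleolar GTPase 2, 1.86 for BETA-GALACTOSIDASE 2, 0.83 for class III peroxidase 17, 2.03 for OsNIA1, and 3.27 for Multidrug and Toxic compound Extrusion protein 2. It was 0.86 for PIP2;4, 1.31 for CELLULOSE SYNTHASE A3, 2.37 for CYCLIN-B2-2, 1.52 for Os11g0648100, 1.76 for Os10g0159600, 1.30 for Os10g0530750, 1.56 for AUXIN RESPONSE FACTOR 16, 1.13 for NAC36, and 1.09 for SHORT ROOT GENE 1.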

How the results depend on the processing

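Of the 145 named genes that were called, 122 were called in every alternative run. In WT, the number of genes called higher (2765) was 1824 with no filter, and the number called lower (2215) was 3834 with edgeR's filter and 3435 in the fit over all 12 libraries. Leaving out 1 library at a time gave from 1308 to 3253 genes higher and from 997 to 2923 lower, the fewest without WT +Pi replicate 1 and the most without WT low-Pi replicate 3. For the difference between genotypes (Os1400 minus WT), 1075 genes were higher, against 3028 with edgeR's filter and 2934 with no filter, and 1177 were lower, against 772 with no filter and 1817 with DESeq2. Leaving out 1 library gave from 549 to 2183 higher, the fewest without Os1400 +Pi replicate 1, and from 602 to 2174 lower, the fewest without WT +Pi replicate 1. Both were highest without WT low-Pi replicate 2. The cause of these shifts was not tested. The Os1400 counts stayed within 1.5 times under the alternatives run. The labels do not say whether same-numbered libraries share more than a number. Correlations of their deviations lay between -0.038 and 0.094 in WT and between -0.052 and 0.025 in Os1400. For libraries with different numbers, they lay between -0.091 and 0.041 in WT and between -0.084 and 0.076 in Os1400. With the replicate number as a block, 2425 genes were higher and 2349 lower in WT, 4005 higher and 3608 lower in Os1400, and 845 higher and 776 lower for the difference. The sign turned for 4 genes that were not called. The log2 fold change without 1 library ran from -0.24 to 0.66 for PHF1, from -1.40 to 0.20 for NICOTIANAMINE SYNTHASE 3, from -0.18 to 0.39 for RCc3, and from -1.25 to 0.79 for Lsi1, which was also at -0.38 with the replicate block and at -0.28 with limma.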
